A study of Homo sapiens with 9 samples.

Results

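The 5 genes described here are the 3 fibrinogen chains FGA, FGB and FGG and 2 other coagulation genes, PROS1 and HABP2, of 14884 named genes on the array. They were taken by gene symbol in the platform annotation, and each had 1 probe set. Their levels in all 3 culture conditions, and their differences within same-numbered low-attachment samples, were known when they were chosen, so those differences are given as descriptions, without p-values.

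RNA came from A549, an established human lung adenocarcinoma line whose cells usually adhere to plastic, after 5 days of culture in serum-containing medium in 96-well plates. The attachment group grew on ordinary plates in normal medium, the low-attachment group on plates to which cells adhere poorly, also in normal medium, and the FP001 group on low-attachment plates with 0.015% (w/v) FP001, an additive known here only by its code. Medium without FP001 received water in its place, per the labels. Each group had 3 arrays. Attachment replicate 1 was left out, since its highest rank correlation with any other array was −0.00191, against 0.983 to 0.985 for the others. That leaves 2 arrays for attachment and 3 for each of the other groups, numbers that limit the precision. The samples are of 1 cell line, and nothing says that replicates were separate cultures.

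Fibrinogen is the soluble plasma protein that thrombin turns into the fibrin mesh of a clot. It is a dimer of 3 chains, Aα, Bβ and γ, which FGA, FGB and FGG encode side by side, and its usual source is the hepatocyte. There its genes belong to the acute phase response, in which interleukin-6 acts through gp130, JAK kinases and STAT3, while HNF1 and C/EBP factors hold the liver-specific level. PROS1 encodes protein S, a vitamin K-dependent cofactor of activated protein C and of tissue factor pathway inhibitor, and also a ligand of the TAM receptor kinases. HABP2 encodes a plasma serine protease that binds hyaluronan and can activate factor VII.

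PROS1 and the 3 fibrinogen chains had lower means with FP001 than in either other group. Of these genes, the promoters of the 3 chains are shown. Each is the stretch of 250 bases before the first start that RefSeq lists (GRCh38.p14), 5′ to 3′ on the gene's own strand. Capitals mark CTGGGA, the core of the interleukin-6 response elements known from acute phase genes, or GTTAAT, a hexamer of the HNF1 site, each on either strand. The windows are chr4:154590743-154590992 on the minus strand for FGA, chr4:154562730-154562979 on the plus strand for FGB and chr4:154612657-154612906 on the minus strand for FGG.
FGA: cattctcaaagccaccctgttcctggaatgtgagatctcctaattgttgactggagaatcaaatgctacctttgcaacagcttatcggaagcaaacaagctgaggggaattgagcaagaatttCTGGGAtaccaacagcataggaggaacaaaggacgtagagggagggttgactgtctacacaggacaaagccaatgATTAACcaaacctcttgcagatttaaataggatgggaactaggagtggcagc
FGB: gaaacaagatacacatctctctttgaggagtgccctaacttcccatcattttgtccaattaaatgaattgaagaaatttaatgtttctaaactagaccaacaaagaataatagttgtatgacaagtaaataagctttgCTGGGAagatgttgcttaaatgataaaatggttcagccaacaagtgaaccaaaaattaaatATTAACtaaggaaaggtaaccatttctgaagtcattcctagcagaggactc
FGG: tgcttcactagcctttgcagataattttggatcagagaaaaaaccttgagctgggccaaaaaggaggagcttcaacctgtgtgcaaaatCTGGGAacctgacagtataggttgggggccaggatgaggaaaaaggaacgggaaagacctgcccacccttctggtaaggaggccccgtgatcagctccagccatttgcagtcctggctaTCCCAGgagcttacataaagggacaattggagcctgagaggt

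CTGGGA began 127 bases before the start of FGA, 112 before that of FGB and 161 before that of FGG, where a further match lay at 42 bases on the other strand. It also occurred in the same window of PROS1, at 32 bases, and of the first listed start of HABP2, at 144 bases. It is a common word, found in 28.8% of 27305 promoter windows of this length. GTTAAT, at 52 bases in FGA and 51 in FGB on the other strand, was found in 6.22% of windows. It did not occur in the windows of FGG, PROS1 and HABP2, and in the windows of these genes the words did not overlap. FGB and HABP2 each have 2 starts in the table. Matches are letters only, and no binding was measured.

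FGA read 2230.1 and 1515 on attachment replicates 2 and 3, against 1693, 1723 and 1997 on the low-attachment arrays (replicates 1 to 3) and 1033, 987 and 1231 with FP001. These are the authors' intensities on a linear scale. Every FP001 array lay below every array of the other groups, while the attachment and low-attachment values overlapped. The mean log2 intensity of FGA was 10.84 ± 0.39 (SD, n = 2) attached, 10.81 ± 0.13 (SD, n = 3) on low-attachment plates and 10.08 ± 0.17 (SD, n = 3) with FP001. FGA was thus 1.67-fold lower with FP001 than in normal medium on the same plates (log2 difference −0.74, SE 0.14).

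FGB, the chain whose assembly is often described as limiting for fibrinogen secretion, was the most scattered of the chains within the low-attachment groups. It read 1906 and 936 on the attachment arrays, 1808, 1089.6 and 1287 on the low-attachment arrays and 1235, 664 and 830.1 with FP001. The groups overlapped, because replicate 1 was the highest array of both low-attachment groups. The mean with FP001 was 1.55-fold below that in normal medium (log2 difference −0.63, SE 0.28) and 1.52-fold below attachment (−0.60, SE 0.32).

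FGG, whose γ chain carries a binding site for platelet integrin, had the largest difference of the chains between FP001 and normal medium. Its intensity was 857 and 476 on the attachment arrays, 603, 527 and 685 on the low-attachment arrays and 334, 256 and 359 with FP001. All 3 FP001 arrays were below the 5 others, and the attachment and low-attachment groups overlapped. The mean fell from 601 in normal medium to 313 with FP001, a 1.92-fold difference (log2 −0.94, SE 0.20), and it was 2.04-fold below attachment (−1.03, SE 0.22).

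PROS1 read 517 and 409 on the attachment arrays, 384, 450.2 and 421 on the low-attachment arrays and 261, 262 and 275 with FP001. The FP001 arrays stood closest together here, with the highest 1.05-fold above the lowest, and lay below all others. The difference between FP001 and normal medium was 1.57-fold (log2 −0.65, SE 0.10), and between FP001 and attachment 1.73-fold (−0.79, SE 0.11). Attachment and low-attachment values overlapped.

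HABP2 had another order. It read 286 and 160.4 on the attachment arrays, 659, 438 and 441 on the low-attachment arrays and 361, 224 and 238 with FP001. Every low-attachment array in normal medium was above all others, and the attachment and FP001 groups overlapped. Its mean was 2.35-fold higher on low-attachment than on attachment plates (log2 1.23, SE 0.27) and 1.88-fold lower with FP001 than in normal medium (−0.91, SE 0.24). Between FP001 and attachment the log2 difference was 0.32 (SE 0.27).

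**Figure D1:**
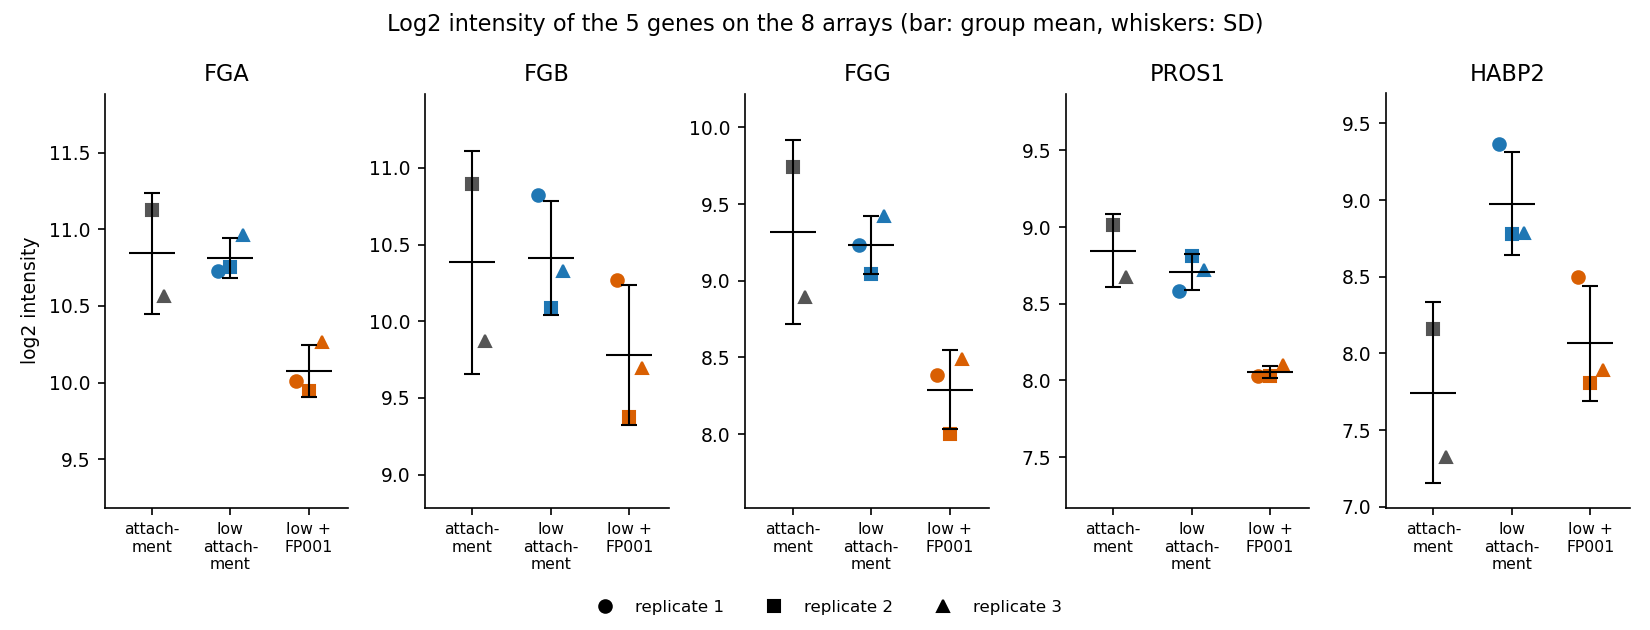
Log2 intensity of the 5 genes on the 8 arrays, with symbols for replicate numbers, a bar for the group mean and whiskers for the SD. FGA, FGG and PROS1 were lowest on the 3 FP001 arrays, FGB overlapped between groups, and HABP2 was highest on the 3 low-attachment arrays in normal medium.

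By mean level, FGA, FGG and PROS1 were ordered attachment, low attachment, FP001, and FGB low attachment, attachment, FP001. For these genes the first pair of neighbours overlapped in every case, and FP001 stood apart for 3 of the 4. The order for HABP2 was low attachment, FP001, attachment, with the last pair overlapping. In all, 4 of the 5 genes had every FP001 array below every low-attachment array in normal medium, an arrangement that 9.01% of the 10916 genes tested had in that direction. Against attachment, 3 of the 5 were wholly lower with FP001 (26.2% of genes), and 1, HABP2, was wholly higher on low-attachment plates (22.2%). These contrasts chose the genes, so the counts are not evidence about them.

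Within same-numbered low-attachment samples, all 5 genes were lower with FP001 in each of 3 comparisons, as were 20.7% of all genes tested. For FGA the log2 difference was −0.71, −0.80 and −0.70 for numbers 1, 2 and 3. For FGB it was −0.55, −0.72 and −0.63, and for FGG −0.85, −1.04 and −0.93. For each chain these differences were closer together than the arrays of either group. The SD of FGB was 0.37 among the low-attachment arrays and 0.45 among the FP001 arrays, against 0.08 for its 3 differences (log2 scale). PROS1 gave −0.55, −0.78 and −0.62, and HABP2 −0.87, −0.97 and −0.89. The differences of PROS1 were no closer together (SD 0.12) than its low-attachment (0.12) or FP001 arrays (0.04). Those of HABP2 were closer (0.05, against 0.34 and 0.38). Number 2 had the largest difference for each of the 5 genes. Of all genes tested, 0.385% were lower by at least 0.5 on the log2 scale in all 3 comparisons. These 5 are among them, but their differences, the smallest of which was −0.55, were known when they were chosen. The share is therefore no evidence about them.

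**Figure D2:**
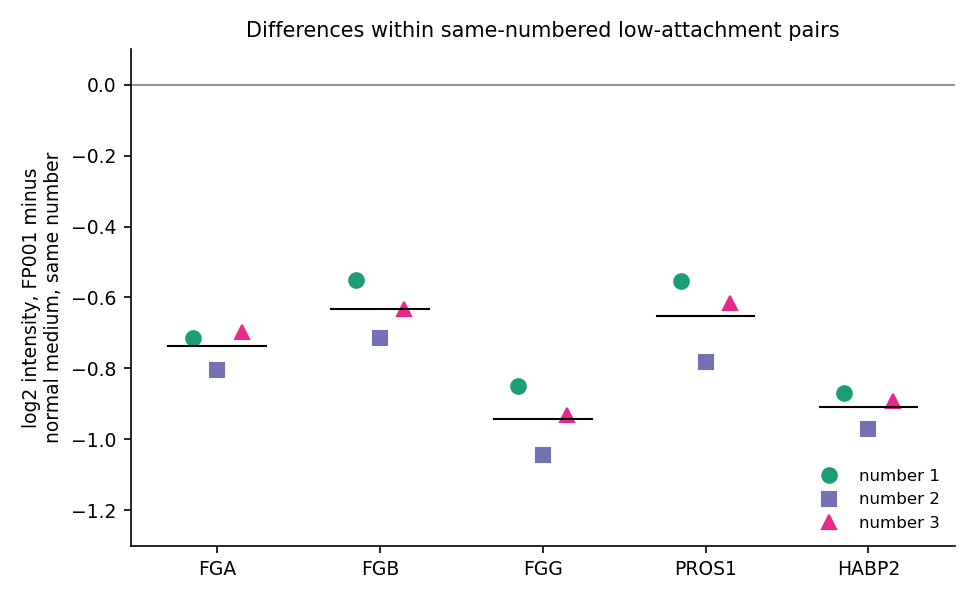
Difference in log2 intensity between FP001 and normal medium for each same-numbered pair of low-attachment arrays, with a line at the mean of 3 pairs. All 15 differences are below 0, from −0.55 (FGB and PROS1, number 1) to −1.04 (FGG, number 2).

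Among the 10916 genes ordered by their difference between FP001 and normal medium, FGG was the 10th lowest, HABP2 the 12th, FGA the 26th, PROS1 the 42nd and FGB the 47th. The median over all genes was 0.01. Between low attachment and attachment, the chains and PROS1 lay between the 27.5th and 53.5th percentiles, with log2 differences of −0.03 (FGA, SE 0.15), 0.03 (FGB, SE 0.32), −0.09 (FGG, SE 0.22) and −0.14 (PROS1, SE 0.11). HABP2 lay at the 99.6th percentile there.

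**Figure D3:**
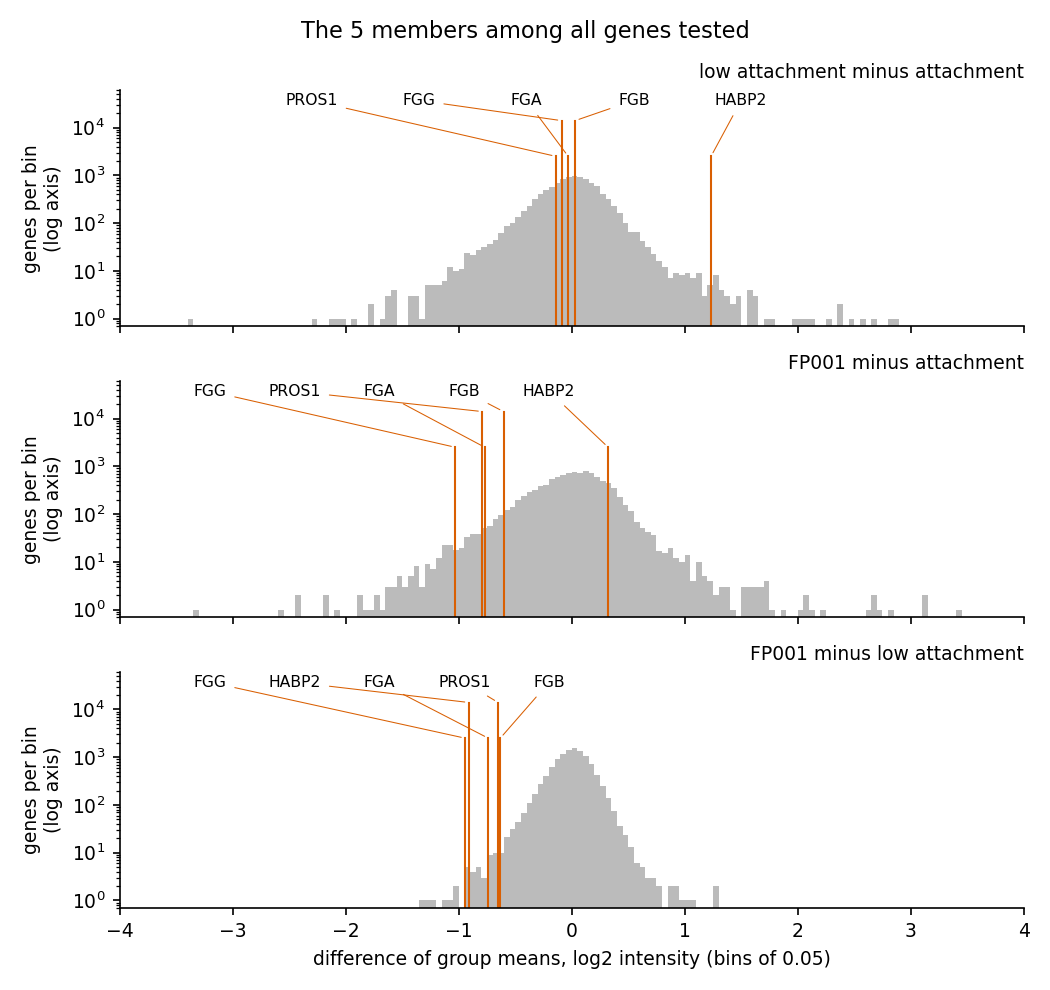
Histograms of the difference in mean log2 intensity for the 10916 genes tested in each comparison, with a log axis for genes per bin and lines for the 5 genes. With FP001 against low attachment all 5 lie in the lower tail, from −0.94 to −0.63, whereas with low attachment against attachment only HABP2, at 1.23, lies in a tail.

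The comparisons with attachment rest on 2 arrays that differed for these very genes. Attachment replicate 2 was above replicate 3 by 1.47-fold for FGA, 2.04-fold for FGB, 1.80-fold for FGG, 1.26-fold for PROS1 and 1.78-fold for HABP2. Of all genes tested, 9.27% were higher on replicate 2 by at least 0.3 on the log2 scale, as were all 5 of these. By any amount 54.5% were higher there. Most gaps of the 5 genes were more extreme than that cut. Their percentiles among all genes were 98.3 (FGA), 99.8 (FGB), 99.6 (FGG), 93.1 (PROS1) and 99.5 (HABP2). The mean log2 difference of the 3 chains between FP001 and attachment was −0.80 (SE 0.29). It was −0.40 without attachment replicate 2 and −1.21 without replicate 3. Between low attachment and attachment the chains differed by −0.03 (SE 0.29), or by 0.38 and −0.43 without replicate 2 and 3. The same omissions moved the difference of HABP2 between low attachment and attachment to 1.65 and 0.81, and between FP001 and attachment to 0.74 and −0.10. For PROS1 it moved to −0.62 and −0.96 between FP001 and attachment, and to 0.03 and −0.31 between low attachment and attachment. Of the single chains, the difference between FP001 and attachment was −0.49 and −1.05 for FGA, −0.09 and −1.12 for FGB, and −0.61 and −1.45 for FGG without replicate 2 and 3.

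Genes beside the fibrinogen genes on the chromosome were looked up as well. PLRG1, a splicing factor gene next to FGB, read between 247 and 337 on the 8 arrays, and its log2 difference between FP001 and low attachment was 0.05 ± 0.09 (SE, adjusted p = 0.875 by limma). LRAT, which follows FGG and encodes a retinol-esterifying enzyme, stayed between 15.9 and 23.1, under the median intensity of the arrays (23.3 to 24.1), and was not tested. PLRG1 differed from attachment by −0.31 ± 0.10 on low-attachment plates (limma adjusted p = 0.0723) and by −0.26 ± 0.10 with FP001 (0.0846). Further along beyond FGG, NPY2R was the other neighbour tested. It differed by −0.31 ± 0.14 between FP001 and low attachment (limma adjusted p = 0.425). These genes were chosen by position.

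Genes whose pattern over the 8 arrays was most like that of a gene here were named by Pearson's r, among genes that ranged over at least 1 on the log2 scale. For the mean of the 3 chains, out of 846 genes, these were MT1X (r = 0.953), a metal-binding metallothionein, then IFITM2 (0.951), CXXC4 (0.941), IFITM1 (0.937) and IFITM4P (0.928). The IFITM genes encode interferon-induced membrane proteins, apart from the pseudogene IFITM4P, and IFITM and metallothionein family members are so alike in sequence that their probe sets may read each other. IFITM2 had mean intensities of 1272 attached, 1239 on low-attachment plates and 770 with FP001. For PROS1 the nearest of 849 genes were the complement gene C5 (0.973), N4BP2L2-IT2 (0.956), FGA (0.953), PMS2P9 (0.946) and ATF7IP (0.937). C5 read 982, 812 and 451 in the same order of groups. For HABP2 they were TCP11L2 (0.971), the complement protease gene CFD (0.967), PBLD (0.965), the thioredoxin inhibitor gene TXNIP (0.963) and ITIH2 (0.963), which encodes a hyaluronan-carrying plasma protein. ITIH2 read 117, 242 and 131. With FP001, CXXC4 (23.2), N4BP2L2-IT2 (17.1) and PMS2P9 (22.5) had means below the array medians (23.3 to 24.1). Part of their pattern therefore rests on dim values. FGA and PROS1 were chosen on the same group differences, so their likeness is no evidence about them. The r values describe 8 arrays that share their groups and, in part, their replicate numbers.

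The rest of the coagulation and acute phase system, with regulators of the fibrinogen genes, was taken from lists of 129 other genes. Of these 70 were named on the array and 54 were bright enough to test with limma. The lists were chosen with earlier results of these data known. Between low attachment and attachment 15 of the 54 changed, 5 up and 10 down (27.8%), against 10.1% of all 10916 genes (adjusted p under 0.05, Benjamini-Hochberg over all genes). With FP001 against attachment 17 changed, 6 up and 11 down (31.5%, against 19.5% of all genes). The medians of the 54 differences were 0.06 and 0.05 on the log2 scale, against 0.01 and 0.02 over all genes. Among the 54, 12 were genes of interleukin-6 family signalling and transcription factors of the fibrinogen genes. Of these 12, 1 rose and 6 fell on low-attachment plates, and 1 rose and 7 fell with FP001 against attachment. The shares over all 54 are therefore not those of the coagulation genes alone, and do not show an excess among these. With FP001 against attachment, 0 of 5 clotting factors, 1 of 5 inhibitors and 1 of 2 fibrinolysis genes were called. So were 1 of 3 vitamin K, 0 of 4 TAM, 1 of 6 hyaluronan and 0 of 1 fibrinogen receptor genes. Of 11 fibrinogen-like genes 2 rose and 1 fell. On low-attachment plates these counts differed only for inhibitors (1 up, 1 down) and fibrinogen-like genes (1 down). Both comparisons use the same 2 attachment arrays. Without attachment replicate 2 or 3 the first count was 7 or 6, with 3.33% or 4.13% of all genes called in the same fits, and the second 9 or 10, with 6.08% or 10.2%. With FP001 against normal medium 0 of the 54 passed, against 0.11% of all genes, and 8 had an unadjusted p under 0.05, as did 11.6% of all genes. The FP001 and normal-medium arrays of the same number varied together. With the replicate number as a block, 142 of all genes (1.3%) were called, 50 up and 92 down. Of the 54, 0 rose and 2 fell.

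Those 2 were TFPI and CP. TFPI encodes tissue factor pathway inhibitor, for which protein S is a cofactor. It read 170.3 and 195 on the attachment arrays, 228, 269 and 304 on the low-attachment arrays and 175, 197 and 191 with FP001. The low-attachment arrays in normal medium were the highest, as for HABP2, and the attachment and FP001 values overlapped. TFPI rose 1.45-fold on low-attachment plates (log2 fold change 0.54 ± 0.13 SE, limma adjusted p = 0.0231), and with the block it fell by 0.50 ± 0.08 with FP001 (adjusted p = 0.0152, against 0.157 without it). The rise was no longer called when attachment replicate 2 (adjusted p = 0.174) or 3 (0.0601), or low-attachment replicate 2 (0.0583) or 3 (0.0655), was left out.

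CP, the copper carrier ceruloplasmin and an acute phase protein, had the same order. It read 1375 and 880.4 on the attachment arrays, 2909, 2396 and 2384 on the low-attachment arrays and 1938, 1592 and 1569 with FP001, so that the 3 groups did not overlap. It rose 2.32-fold on low-attachment plates (limma adjusted p = 0.0023) and 1.54-fold with FP001 against attachment (0.0292). The second call was lost without attachment replicate 3 (log2 fold change 0.30, adjusted p = 0.223) and without FP001 replicate 1 (0.0793) or 2 (0.0543), and its log2 fold change was 0.94 without attachment replicate 2. With the block CP was lower with FP001 than in normal medium by 0.59 ± 0.10 on the log2 scale (adjusted p = 0.0191, against 0.2 without it).

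Of 12 tested genes of interleukin-6 family signalling and of the transcription factors of the fibrinogen genes, 1 rose and 6 fell on low-attachment plates (median −0.38), and 1 rose and 7 fell with FP001 against attachment (median −0.51). OSMR, a receptor chain for oncostatin M, fell from 656 attached to 410.5 and 332 (log2 fold change −0.68 ± 0.13, limma adjusted p = 0.0084, and −0.98 ± 0.13, 0.000854). The gp130 cytokine gene LIF fell 1.90-fold and 1.67-fold, the kinase gene JAK2 1.60-fold and 1.80-fold, and SOCS3, a feedback inhibitor that STAT3 induces, 1.56-fold and 1.49-fold. STAT3 itself, named here after its values were seen, read 1430.1 and 1168 attached, 1164, 955 and 933 on low-attachment plates and 961, 816 and 881 with FP001. It fell 1.46-fold with FP001 against attachment (limma adjusted p = 0.0122). FOXA1, a pioneer factor of liver and lung genes, rose 1.58-fold and 1.48-fold. Its relative FOXA2, also named after its values were seen, went the other way, from 429 attached to 323 and 309.6 (limma adjusted p = 0.0175 and 0.00587). Deviations of attachment arrays from their group mean correlated at −0.256 to 0.138 with those of same-numbered arrays of the other groups. Block results against attachment, for any gene here, thus rest on a pairing that these values do not bear out. With the replicate block 2 rose and 7 fell in both comparisons with attachment. The interleukin-6 receptor gene IL6R, again chosen by its values, was then called higher in both (log2 fold change 0.66, adjusted p = 0.0121, and 0.61, 0.0127, against 0.0702 and 0.0667 without the block), and STAT3 lower on low-attachment plates too (−0.43, 0.00881, against 0.0935). With FP001 against normal medium 0 of the 12 passed, with and without the block (median −0.06).

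With 1 attachment array left out, several of these calls were lost, while each difference kept its sign. Without attachment replicate 2, JAK2, FOXA1 and FOXA2 missed the threshold in both comparisons (adjusted p = 0.158, 0.0873 and 0.132 for low attachment, 0.0629, 0.0998 and 0.0646 for FP001), as did OSMR on low-attachment plates (0.0928) and STAT3 with FP001 (0.128). Without attachment replicate 3, SOCS3 and FOXA1 missed it in both (0.076 and 0.0634 for low attachment, 0.0664 and 0.0629 for FP001), as did JAK2 and FOXA2 on low-attachment plates (0.0751 and 0.0601) and LIF with FP001 (0.0612). FOXA1 was thus lost on either omission, although its log2 fold change stayed between 0.62 and 0.72 on low-attachment plates over all omissions of 1 array (0.66 with 8 arrays).

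**Figure D4:**
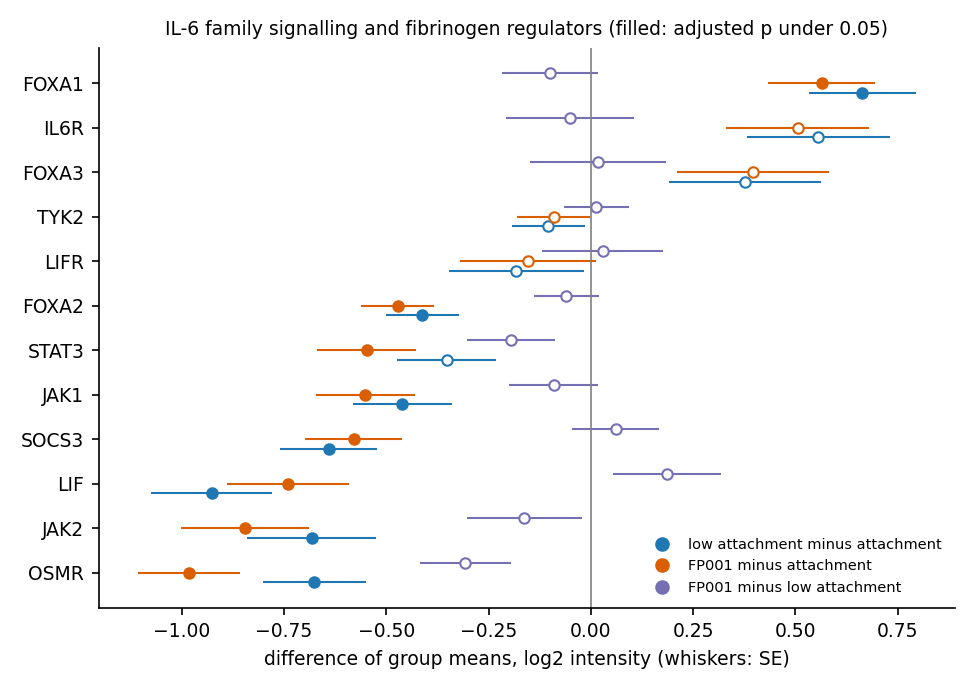
Difference in mean log2 intensity, with its SE, for the 12 tested genes of interleukin-6 family signalling and fibrinogen regulation in 3 comparisons, with filled symbols for limma adjusted p under 0.05. Filled symbols below 0 number 6 for low attachment and 7 for FP001 against attachment, FOXA1 is filled and above 0 in both, and no symbol is filled for FP001 against low attachment.

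Of 5 other acute phase genes tested, 1 rose and 1 fell in each comparison with attachment (medians −0.08 and 0.03). The riser was CP, and the gene that fell was LBP, which encodes a carrier of bacterial lipopolysaccharide. LBP went from 92.6 attached to 40.3 on low-attachment plates and 38.4 with FP001 (limma adjusted p = 0.00263 and 0.00115). Other acute phase genes stayed dim: SAA1, HP, ORM1 and ORM2 were below the array median on all 8 arrays. Of 5 tested clotting factor genes 0 passed in any comparison. The brightest, F7, which encodes the factor that HABP2 can activate, had a mean of 76.4 attached, 94.3 on low-attachment plates and 79.4 with FP001 (limma adjusted p from 0.119 to 0.756). F9 and F11 lay below the array median on all 8 arrays.

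Of 5 coagulation inhibitors, 1 rose (TFPI) and 1 fell on low-attachment plates (median 0.12), and 1 fell with FP001 against attachment (median 0.04). The gene that fell was THBD, encoding thrombomodulin, which turns thrombin towards activating protein C. It went from 145.5 attached to 104 (limma adjusted p = 0.0181) and 111.5 (0.0305). The first call was lost without attachment replicate 2 (0.146), and the second also without attachment replicate 3 (0.0546) or FP001 replicate 2 (0.0888) and with quantile normalization (0.0577).

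Of 3 genes of the vitamin K cycle and of factor export, 1 rose in each comparison with attachment (medians 0.30 and 0.18). This was GGCX, the carboxylase that protein S needs, up 1.33-fold (limma adjusted p = 0.0202) and 1.24-fold (0.0377). The first call was lost without attachment replicate 2 (0.103) or 3 (0.102) or low-attachment replicate 2 (0.0575). The second was lost with median centring (0.0559) and in 6 of 8 omissions of 1 array (up to 0.144), all but those of low-attachment replicate 1 and FP001 replicate 1. Of 4 genes of the TAM system, the receptor genes AXL, TYRO3 and MERTK and the gene of the related ligand GAS6, 0 passed. The brightest, AXL, read 551 and 504 attached, 312, 448 and 505 on low-attachment plates and 241, 381 and 408 with FP001 (limma adjusted p = 0.0698 for FP001 against attachment, and 0.00522 with the block, where it fell).

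Of 2 fibrinolysis genes tested, S100A10, part of a plasminogen receptor, rose 1.29-fold and 1.31-fold against attachment (limma adjusted p = 0.0274 and 0.0133; list medians 0.14 and 0.14). The first was lost without attachment replicate 2 (0.181) or 3 (0.075) or low-attachment replicate 2 (0.0828) or 3 (0.071), and the second without attachment replicate 2 (0.108). Of 11 tested genes of proteins with a fibrinogen-like domain, 1 fell on low-attachment plates (median 0.13), and 2 rose and 1 fell with FP001 against attachment (median 0.21). The lipase inhibitor gene ANGPTL4 fell 1.76-fold (limma adjusted p = 0.00578, or 0.0616 without attachment replicate 3) and 1.97-fold (0.0014), and FIBCD1, a chitin receptor gene, rose 1.46-fold with FP001 (0.00323). FCN2, a lectin gene, rose 1.37-fold (0.048), a call lost with the block (0.0788), with quantile normalization, median centring or an added 16 (0.0539, 0.058 and 0.0525), without the filter (0.0596), and in 7 of 8 omissions, all but that of low-attachment replicate 1.

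Of 6 tested genes of hyaluronan synthesis and binding, 1 fell in each comparison with attachment (medians −0.31 and −0.07; 3 fell with the block on low-attachment plates). The hyaluronan synthase gene HAS2 fell 2.94-fold and 3.27-fold (limma adjusted p = 0.0023 and 0.000852). It read 206 and 123 attached, 59.9, 45.3 and 58.8 on low-attachment plates and 55.8, 40.1 and 52.0 with FP001. Of the fibrinogen receptor genes only ICAM1 was tested, with log2 fold changes of 0.03 and −0.02 against attachment (limma adjusted p = 0.915 and 0.928).

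Markers of epithelial cells were detected but did not all move one way. Of 7 epithelial markers 6 were named and all 6 reached the array median on at least 3 arrays, with summed intensities of 4231 to 4379 attached, 4445 to 4786 on low-attachment plates and 5169 to 5721 with FP001. The brightest was KRT18, a keratin, at 3478 to 4579, which makes up most of these sums. On low-attachment plates 2 of the 6 rose and 1 fell, and with FP001 against attachment 3 rose and 1 fell. Named after their values were seen, KRT19 rose 2.04-fold and 2.93-fold (limma adjusted p = 0.0158 and 0.00135; the first 0.13 without attachment replicate 3). KRT7 fell 1.45-fold on low-attachment plates (0.0422), and the adhesion gene EPCAM 1.44-fold with FP001 (0.042). The call for KRT7 was lost in 5 of 8 omissions of 1 array and that for EPCAM in 6 of 8, and both were lost with quantile normalization (0.0622 and 0.0719). Markers of alveolar type II cells were dim (5 of 6 at the median, sums 183 to 236; the brightest, SFTPD, read 51.5 to 65.4). Of 9 named hepatocyte markers 6 reached the median, and their sums were 1069 to 1585, 2422 to 3451 and 1976 to 2904. Most of that was APOH, a phospholipid-binding plasma protein that rose 2.46-fold and 1.91-fold against attachment (limma adjusted p = 0.00815 and 0.0227; both lost without attachment replicate 3, at 0.0809 and 0.181, and the second also without FP001 replicate 1, at 0.0583). The log2 fold change of APOH with FP001 was 0.57 without attachment replicate 3. Of the 6 hepatocyte markers tested, 2 rose and 0 fell in each comparison with attachment. The other was TTR, which rose 1.52-fold and 1.47-fold (limma adjusted p = 0.0184 and 0.0163). ALB read 14.9 to 29.9 and AFP 7.24 to 9.37.

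For other cell types, sums of platelet markers (3 of 4 at the median; brightest PF4) were 182 to 195 attached, 184 to 190.5 on low-attachment plates and 187 to 196 with FP001. Endothelial sums (1 of 5; brightest CLDN5) were 103 to 119.5, 113 to 135 and 129 to 156. Fibroblast sums (1 of 2; brightest LUM) were 31.6 to 96.7, 27.9 to 250.4 and 82.7 to 440.1, with DCN below 4 on every array. Leukocyte sums (3 of 3; brightest CD68) were 424 to 503, 557 to 789 and 622 to 954. Of the platelet, endothelial and fibroblast markers tested, 0 passed in any comparison. LYZ, named after its values were seen, rose 4.78-fold and 6.07-fold against attachment (limma adjusted p = 0.00414 and 0.00124). Its attached mean of 18.0 lay below the array median. CD68 rose 1.67-fold with FP001 against attachment (limma adjusted p = 0.0146), a call lost without either attachment array. The part of any of these in the levels of the 5 genes was not tested. The samples are of 1 cell line, so these sums describe RNA of A549 cultures and are no count of other cell types. Whether a part of the cells changed or all of them did cannot be told from such samples.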

How the data were processed

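For each probe set and array the authors deposited a linear intensity, which MAS5 had produced according to the submitters' processing notes. No version or settings of MAS5 are stated there. Columns were matched to samples by accession and samples to groups by title, and 0 columns went unused. GEO's annotation of the platform named 16098 of 53617 probe sets, whose symbols were brought up to date by RefSeq gene identifier, and 37519 stayed unnamed. Labelling used a 3′ IVT kit, per the labels' protocols, whereas this array design is made for whole-transcript labelling. Which part of a transcript the values read is therefore uncertain.

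Intensities were taken to log2 as deposited, without a pseudocount or renormalization. Probe sets reaching the median of their array on 3 or more of 8 arrays were kept, with the brightest standing for its gene (10916 genes). All groups were fitted together with limma 3.58.1 in R 4.3.3 (trended eBayes, two-sided, Benjamini-Hochberg over all genes, threshold 0.05). The p-values cover the spread among these samples alone, and that spread may be technical. The 5 genes and all lists were chosen with earlier results of these data known. Named were the 5 genes, up to 4 called genes per list and comparison, the brightest gene of a list with none and of each marker list, and the 5 genes of most similar pattern. Pairing by replicate number was checked through correlations of deviations from group means. Same-numbered low-attachment arrays without and with FP001 gave 0.483, 0.309 and 0.231, each above 0.1, and were compared pair by pair. Low-attachment replicate 2 and FP001 replicate 3, of unlike number, gave 0.133. With the attachment arrays, numbers 2 and 3 gave −0.205 and 0.138 (low attachment) and −0.256 and 0.0076 (FP001). The main fit and its SEs did not use the pairing, which entered only the pair differences and the replicate block. In simulated data with 100 genes changed by 1 on the log2 scale among 10916, the fit recovered 87% (low attachment against attachment), 89% (FP001 against attachment) and 91% (FP001 against low attachment). The same runs also held 100 genes changed by 2, and 12, 8 and 9 unchanged genes were called. Simulated arrays were independent of each other, unlike same-numbered arrays here. Changes smaller than 1 were not simulated, so these shares do not bear on them. RefSeq promoter windows matched all 5 genes. Alternatives were quantile normalization, median centring, an added 16, other filters, no variance trend, the replicate block, all 9 arrays, and each array left out.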

Additional observations from a re-analysis of the deposited data

How the results depend on the processing

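The 5 genes, chosen on this difference, and the mean of the chains were lower with FP001 than in normal medium in 54 of 54 values (−0.43 to −1.12 on the log2 scale) from the 9 alternatives that can move it: quantile normalization, median centring, an added 16, and each of the 6 arrays compared left out. The replicate block, all 9 arrays, averaged probe sets and the 2 omissions of attachment arrays leave it as it is by construction. With all 9 arrays, attachment replicate 1 included, 0 of the 54 list genes were called in either comparison with attachment, and 0 of all genes. The differences between FP001 and attachment then became 1.76 (chains), 2.07 (FGA), 1.45 (FGB), 1.75 (FGG), 0.69 (PROS1) and 1.69 (HABP2), and between low attachment and attachment 2.53 (chains), 1.34 (PROS1) and 2.596 (HABP2). In that fit, signs also turned for ANGPTL4 (0.24 on low-attachment plates and 0.078 with FP001), HAS2 (0.22 and 0.073), JAK2 (0.87 and 0.71), OSMR (0.72 and 0.41), SOCS3 (0.95 and 1.02), THBD (0.51 and 0.61), FOXA1 (−0.92 and −1.02), KRT7 (1.38 on low-attachment plates) and STAT3 (2.07 with FP001).

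With 1 array left out, the chains' difference lay between −1.21 and −0.40 (FP001 against attachment), −0.43 and 0.38 (low attachment against attachment) and −0.87 and −0.63 (FP001 against low attachment). For PROS1 the ranges were −0.96 to −0.62, −0.31 to 0.029 and −0.71 to −0.60, and for HABP2 −0.10 to 0.74, 0.81 to 1.65 and −1.12 to −0.72. Counts of list genes called were 9 to 18, 6 to 18 and 0 to 0. Where an arm kept 1 array, that array was assumed to vary like the other groups. The replicate block gave 2 list genes called between FP001 and low attachment. Each of the 5 genes had 1 probe set, so averaging probe sets changed no value. Quantile normalization turned the split of all calls between low attachment and attachment from 471 up and 629 down to 612 and 512, and between FP001 and attachment from 882 and 1244 to 1241 and 968. Without a variance trend 0 genes, against 12, were called between FP001 and low attachment. With the block 142 were, and with 1 array left out 0 to 11. All 5 genes read above the median of each of the 8 arrays used.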
